A study of Mus musculus with 8 samples.

Results

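The 43 genes described here encode the subunits of the mouse proteasome and the factors that share its gene symbols. They were taken from 48440 listed genes, 21989 of them with a protein-coding transcript, by the symbol alone: Psma, Psmb, Psmc, Psmd or Psme followed by a number, with at least 1 protein-coding transcript. By role, 7 are alpha subunits and 7 are constitutive beta subunits of the 20S core, 3 are inducible catalytic subunits of the immunoproteasome and 2 are tissue-specific 20S subunits. A further 6 are ATPases and 11 are non-ATPase subunits of the 19S cap, 3 are chaperones of 19S assembly that carry Psmd symbols, and 4 encode activators. The alpha, constitutive beta, ATPase and non-ATPase subunits, 31 genes in all, are called core subunits below. All 43 genes passed the filter on low counts, and 38 had a mean of at least 10 TPM (transcript abundance per length, scaled to a fixed total).

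RNA was sequenced from 4 kinds of mouse cells with 2 libraries each. They were germinal vesicle (GV) oocytes, those labelled as metaphase II (MII), cultured embryonic stem cells (ESC), and the epiblast cells (EpiC) into which ESC were differentiated in vitro. By the series title, the study is about how microRNA activity is suppressed in oocytes. Donor mice received 5 units of PMSG, a gonadotropin, 48 h ahead of a further injection whose agent the labels leave out, and oocytes were held in 2 µM milrinone, which blocks resumption of meiosis. The labels give this protocol for MII as well as GV oocytes and state no maturation step for MII. ESC grew in 15% serum with LIF, the MEK inhibitor PD0325901 and the GSK3 inhibitor CHIR99021. The epiblast cells came from ESC that were plated for 24 h, lost LIF and inhibitors, and were collected about 56 h later. No strain, cell line or genotype is given. Nothing states that the 2 libraries of a group were made from different animals or cultures. Every p-value here thus reflects the spread between these libraries, which may be technical.

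The 26S proteasome degrades proteins that carry ubiquitin chains. Its 20S core is a barrel of stacked rings: outer rings of alpha subunits form the gate, and inner rings of beta subunits hold the proteolytic sites of Psmb5 (chymotrypsin-like), Psmb6 (caspase-like) and Psmb7 (trypsin-like). The 19S cap binds ubiquitinated proteins, removes the chains and threads the substrate into the core by its ring of Psmc ATPases. In an assembled particle the subunits stand in fixed proportions, and interferon exchanges the catalytic subunits for Psmb8, Psmb9 and Psmb10. In oocytes, proteasomes degrade cyclin B and securin during the meiotic divisions, and maturing oocytes degrade many stored mRNAs while they transcribe little.

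Total estimated counts ran from 47463546 to 196788239 per library, and replicate 2 was the deeper library of every group. Gm42418, a gene model that collects reads of ribosomal RNA, took between 0.022% and 0.151% of the counts in the replicate 1 libraries. In replicate 2 it took 1.66% in GV, 3.03% in MII, 14.7% in ESC and 22.7% in EpiC, and since TPM has a fixed total, less of it was left for other genes in those libraries. The list of 12 oocyte markers summed to between 25910 and 35380 TPM in the oocyte libraries and to at most 28.1 TPM in the cultured cells. The 9 naive markers summed to 2406 and 1873 TPM in ESC and to 263 and 139 TPM in EpiC, where 8 and 7 stayed above 1 TPM. In GV they summed to 152 and 199 TPM and in MII to 32.4 and 36.6 TPM. Formative markers summed to 692 and 174 TPM in EpiC and to 58.05 and 31.8 TPM in ESC. Formative markers also summed to 128 and 205 TPM in MII, nearly all of it from Lef1 at 112 and 188 TPM, while Fgf5, Pou3f1, Otx2 and Fgf15 were at or near 0 there and above 1 TPM in EpiC. In bulk RNA, fewer cells of a type and less RNA per cell cannot be told apart.

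The size of the proteasome mRNA pool in MII oocytes depended on the measure and its scaling. In TPM it was smaller in MII than in GV oocytes. The 43 genes summed to 6740 and 7334 TPM in GV oocytes and to 2530 and 2730 TPM in MII oocytes. The sums were 7984 and 5353 TPM for ESC and 8595 and 4481 TPM for EpiC. On that scale both MII libraries lay below all of the other 6. As a share of estimated counts, in which long transcripts weigh more, it was smaller in MII too. That share was 0.507% and 0.590% in GV and 0.254% and 0.243% in MII. Divided by the TMM factors used for the fold changes below, which set each gene against the bulk of mRNAs, the shares of counts turned their order. The TPM sums were not divided in this way, so they differ from the scaled shares in length weighting as well as in scaling. The 43 genes made 0.472% and 0.513% of the scaled GV libraries and 0.603% and 0.600% of those of MII. For ESC the shares were 0.478% and 0.328%, and for EpiC 0.470% and 0.294%. The members changed unequally, as the role groups show. In TPM the 6 ATPase genes were the most reduced of the core role groups, with 911 and 1056 TPM in GV against 68.5 and 75.7 TPM in MII. The activators were the only role group whose summed TPM was higher in both MII libraries than in both GV libraries, at 561 and 474 TPM against 343 and 305.

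**Figure D1:**
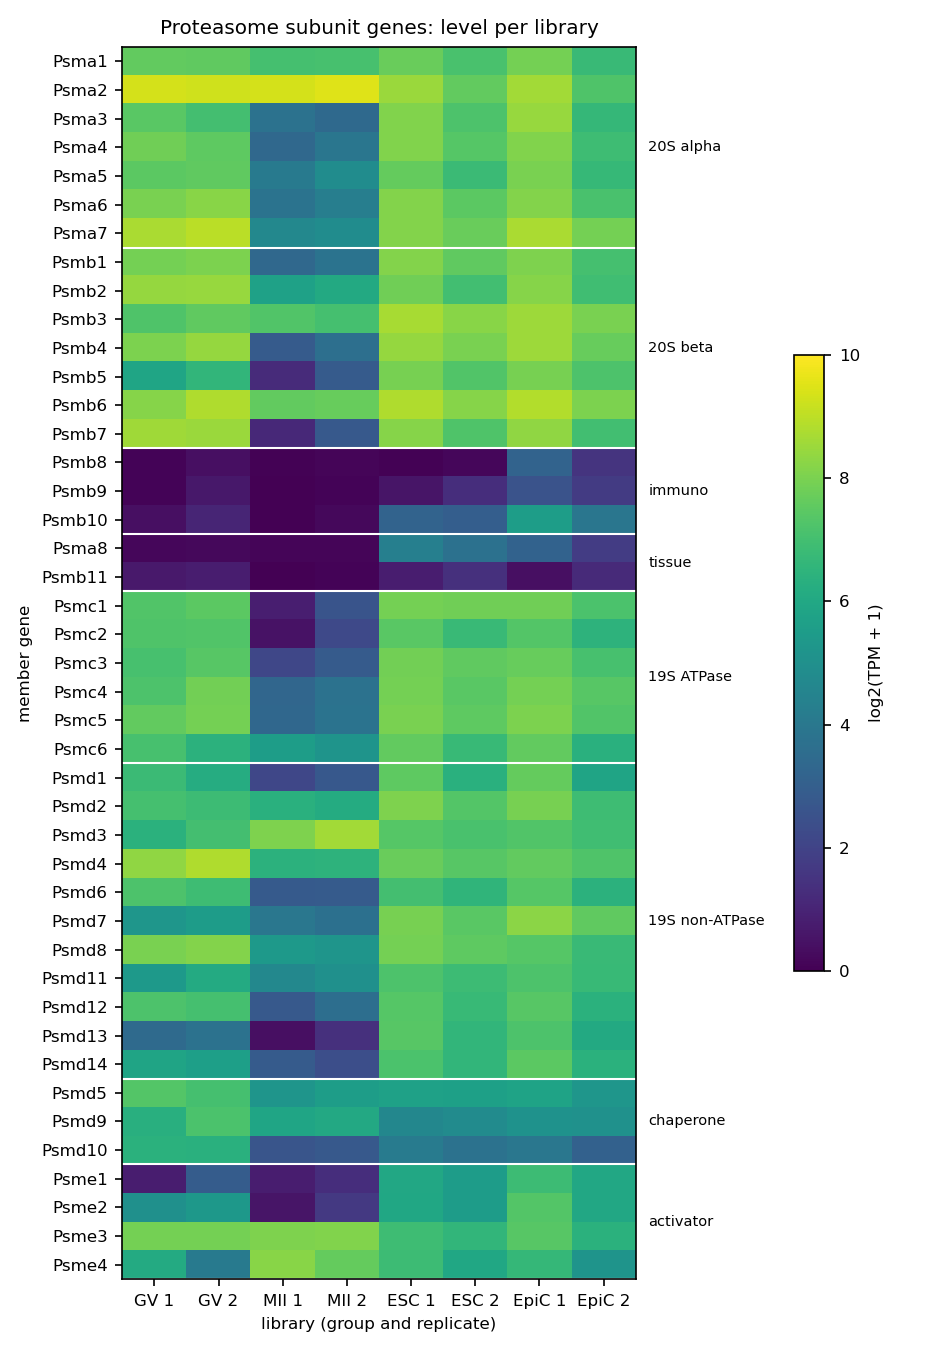
Level of each of the 43 genes in each of the 8 libraries as log2(TPM + 1), rows ordered by role and columns by group and replicate. Most rows are darker in the 2 MII columns than in GV. Psma2 stays bright there, at 646 and 735 TPM, and Psme4 is brighter there than in GV, at 296 and 199 TPM.

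The proportions among the 31 core subunits also differed between groups. In ESC the lowest core subunit stood at 127 TPM and the highest at 446 in replicate 1, and at 79.4 and 301 in replicate 2. In GV the same extremes were 9.92 and 660 TPM, and 12.7 and 618 TPM. In MII they were 0.314 and 646 TPM, and 1.58 and 735 TPM, with Psmd13 lowest and Psma2 highest in all 4 oocyte libraries. The SD over the core subunits of log2(TPM + 1) was between 0.432 and 0.535 in the 4 cultured-cell libraries, 1.17 in both GV libraries, and 2.33 and 1.98 in MII. Core subunit mRNAs were therefore spread more widely in GV than in either cultured cell type, and more widely again in MII. No test was made on this measure, since 2 libraries a group cannot reach an exact permutation p under 0.05.

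**Figure D2:**
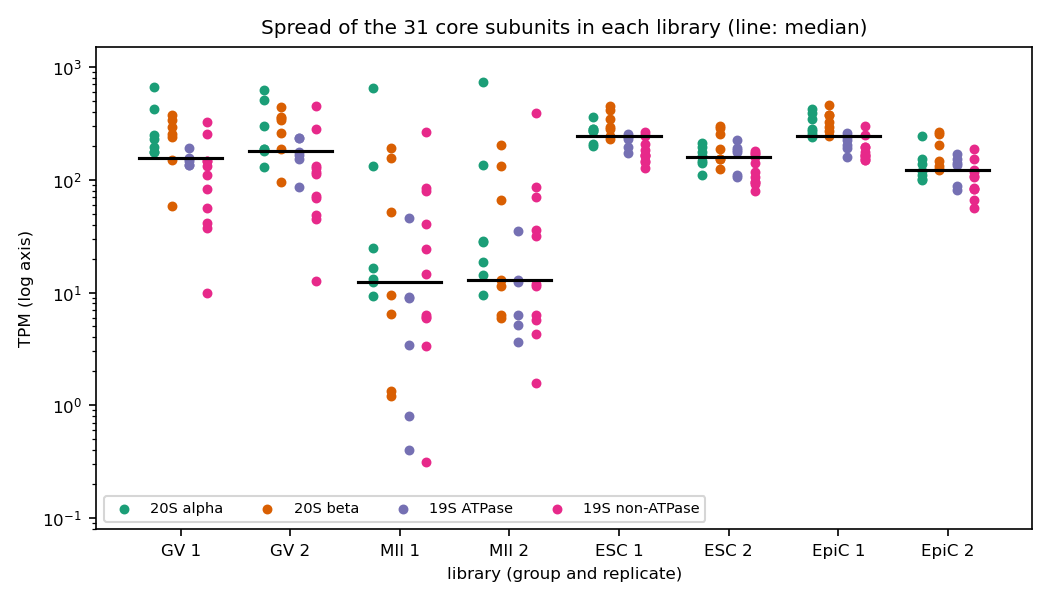
TPM of the 31 core subunits on a log axis in each library, one point per gene, coloured by role, with the median of the 31 as a black line. The medians are 157 and 181 TPM in GV, 12.5 and 13.0 TPM in MII, and between 123 and 244 TPM in the cultured cells, and the points span the widest range in MII.

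The comparison of MII with GV asks what happens to these stored mRNAs over oocyte maturation. Most core subunits fell, a few genes rose, and the changes ran from a log2 fold change of −5.47 for Psmb7 to 3.75 for Psme4. By the edgeR quasi-likelihood test with Benjamini-Hochberg adjustment over 25045 genes, 24 of the 43 genes fell and 4 rose. Over all genes tested, 22.2% were called lower and 17.4% higher. Among the 38 genes with a mean of at least 10 TPM the counts were 24 and 4, against 34.6% lower and 35.5% higher of the 8177 genes with a coding transcript at that level. By limma on log2(TPM + 1), 26 of the 43 were called lower and 2 higher, against 32.6% and 9.61% of all genes. The median log2 fold change by edgeR was −1.95 for the 43 genes and −0.53 for all genes. Of the 31 core subunits, 22 fell, 2 rose and 7 were not called.

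These fold changes are on TMM-scaled counts, which set each gene against the bulk of mRNAs and give no amount per cell. The sources used here do not state whether poly(A) RNA was selected, and in selected RNA a smaller amount of an mRNA and a shorter poly(A) tail cannot be told apart. On the scale of log2(TPM + 1), the log2 fold change of MII over GV of a gene with a mean of at least 10 TPM was lower by a median of 1.10, and that of the 38 members by 1.08. A gene at equal TPM in both stages, such as Psma2, therefore has a positive log2 fold change here. The calls of 20 of the 24 lower genes and of Psmd3 and Psme4 held in every one of the 18 alternative settings.

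**Figure D3:**
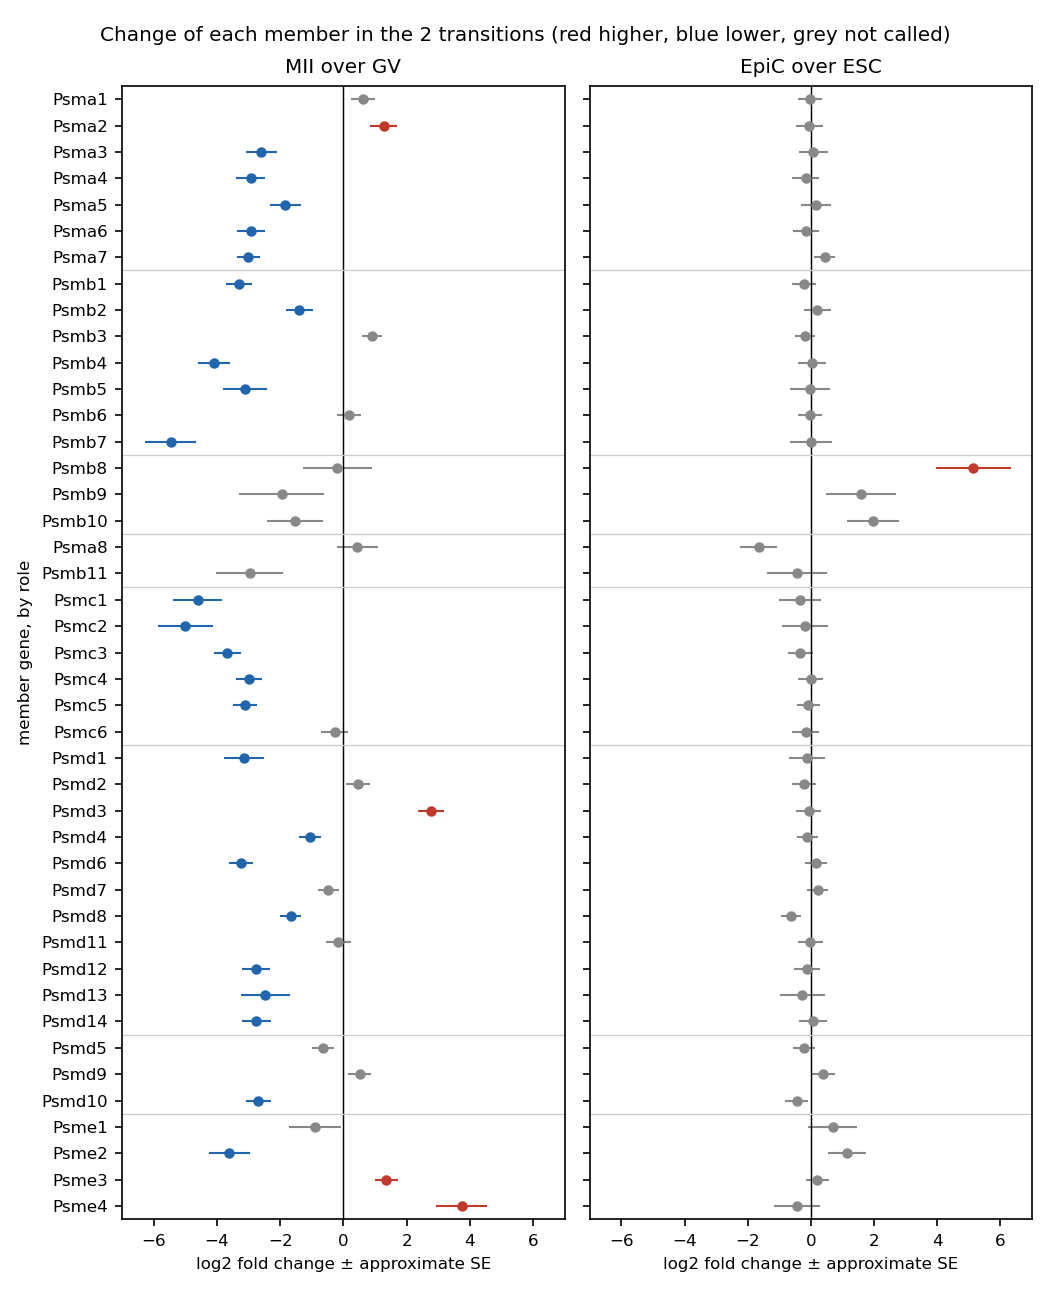
Log2 fold change ± approximate SE of each of the 43 genes from GV to MII (left) and from ESC to EpiC (right), ordered by role, with genes called higher in red, called lower in blue and not called in grey. On the left 24 genes are blue and 4 red, from −5.47 to 3.75. On the right Psmb8, at 5.14, is the only coloured point.

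Of the 7 alpha subunits, which form the gate of the barrel, 5 fell. Psma7 measured 424 and 505 TPM in GV and 24.6 and 27.8 TPM in MII, a log2 fold change of −3.0 ± 0.37 (approximate SE; adjusted p = 0.00057). Psma4 fell by 2.94, Psma6 by 2.92, Psma3 by 2.60 and Psma5 by 1.84 on the log2 scale. The call of Psma5 was lost without GV replicate 2 (−1.73) and without MII replicate 1 (−1.57). Psma2 stood apart, at 660 and 618 TPM in GV and 646 and 735 TPM in MII, so that the TPM ranges of the stages overlapped. Its log2 fold change was 1.28 ± 0.43 (adjusted p = 0.0417). That call was lost without any 1 of the 4 oocyte libraries, at 1.14 and 1.28 without GV replicates 1 and 2 and at 1.31 and 1.02 without MII replicates 1 and 2, and on the log2(TPM + 1) scale, at 0.11. Psma1 was not called, with 194 and 187 TPM in GV, 131 and 134 TPM in MII and a log2 fold change of 0.63 ± 0.38.

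Of the 7 constitutive beta subunits, 5 fell, among them the catalytic subunits Psmb5 and Psmb7. Psmb7 measured 378 and 359 TPM in GV and 1.20 and 5.96 TPM in MII, a log2 fold change of −5.47 ± 0.81 (adjusted p = 0.000897). Psmb5 measured 58.5 and 95.4 TPM in GV and 1.35 and 6.34 TPM in MII, a log2 fold change of −3.12 ± 0.69 (adjusted p = 0.00607). Both genes were far below their GV level in both MII libraries. The third catalytic subunit, Psmb6, was not called: it measured 292 and 442 TPM in GV and 191 and 203 TPM in MII, with a log2 fold change of 0.18 ± 0.38 (adjusted p = 0.739). In GV the 3 catalytic mRNAs lay between 58.5 and 442 TPM, while in MII Psmb6 was far above the other two. The non-catalytic Psmb4 fell by 4.10 and Psmb1 by 3.30 on the log2 scale. Psmb2 fell by 1.40, a call that was lost without GV replicate 2 (−1.32), without MII replicate 1 (−1.30) and without MII replicate 2 (−1.75). The same call was also lost with relative log expression scaling (−1.19) and with DESeq2 (−1.19). Psmb3 was not called, with 150 and 189 TPM in GV, 155 and 132 TPM in MII and a log2 fold change of 0.90 ± 0.33 by edgeR (adjusted p = 0.0523). DESeq2 called it higher, at 1.14 (adjusted p = 0.0172), as did edgeR with relative log expression scaling (1.14), with the replicate block (0.90), on the compared groups alone (0.99) and on coding transcripts alone (0.85).

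Of the 6 ATPases that form the unfolding ring of the 19S cap, 5 fell. Psmc2 measured 151 and 154 TPM in GV and 0.406 and 3.63 TPM in MII, a log2 fold change of −5.0 ± 0.88 (adjusted p = 0.00187). Psmc1 measured 157 and 178 TPM in GV and 0.797 and 5.11 TPM in MII, a log2 fold change of −4.61 ± 0.77 (adjusted p = 0.00152). Psmc3, Psmc5 and Psmc4 fell as well, with log2 fold changes of −3.67, −3.11 and −3.0. Psmc6 was not called, with 134 and 85.5 TPM in GV, 45.9 and 35.3 TPM in MII and a log2 fold change of −0.27 ± 0.42. The ATPase ring holds 1 copy of each of these proteins, and in MII the mRNA of Psmc6 was above that of every other ATPase in both libraries.

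Of the 11 non-ATPase subunits, 7 fell, 1 rose and 3 were not called. Psmd3, a subunit of the lid of the 19S cap, measured 83.2 and 127 TPM in GV and 266 and 393 TPM in MII. Both MII libraries lay above both GV libraries, and the log2 fold change was 2.78 ± 0.42 (adjusted p = 0.000941). Between 73.4% and 81.9% of the level of Psmd3 came from the coding transcript Psmd3-001 in the 4 oocyte libraries. Other lid subunits went down: Psmd6 fell by 3.25 and Psmd12 by 2.77 on the log2 scale. Psmd14, the deubiquitinase that removes ubiquitin chains from the substrate, fell by 2.75. The base scaffold Psmd1 fell by 3.15 and the lid subunit Psmd8 by 1.67. Psmd2, the other large base scaffold, was not called, with 133 and 113 TPM in GV, 80.1 and 70.7 TPM in MII and a log2 fold change of 0.45 ± 0.38. The lid subunits Psmd7 and Psmd11 were not called either, at −0.48 ± 0.33 and −0.16 ± 0.40, but Psmd7 was called lower on the log2(TPM + 1) scale, at −1.56.

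Calls of 2 further non-ATPase genes were lost in several of the alternative settings. The lid subunit Psmd13 was already low in GV, at 9.92 and 12.7 TPM, and measured 0.314 and 1.58 TPM in MII, a log2 fold change of −2.47 ± 0.77 (adjusted p = 0.0302). That call was lost without GV replicate 2 (−2.26), without MII replicate 1 (−1.81) and on coding transcripts alone (−2.33). The ubiquitin receptor Psmd4 measured 324 and 453 TPM in GV and 83.9 and 86.3 TPM in MII, a log2 fold change of −1.07 ± 0.34. It lost its call without GV replicate 2 (−0.72), MII replicate 1 (−1.05), MII replicate 2 (−1.31), ESC replicate 1 (−1.08) or ESC replicate 2 (−1.07), with relative log expression scaling (−0.85), with DESeq2 (−0.85) and on the compared groups alone (−0.997).

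The 3 chaperones that escort the ATPases into the 19S base differed from each other. Psmd10, also named gankyrin, measured 81.7 and 80.3 TPM in GV and 5.25 and 5.98 TPM in MII, a log2 fold change of −2.69 ± 0.39 (adjusted p = 0.000812). Psmd5 measured 158 and 130 TPM in GV and 36.5 and 45.9 TPM in MII, with a log2 fold change of −0.65 ± 0.34 that was not called by edgeR and was called lower on the log2(TPM + 1) scale, at −1.79. Psmd9 measured 77.6 and 144 TPM in GV and 57.9 and 65.4 TPM in MII, and at 0.52 ± 0.36 it was not called.

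The 4 activators, which cap the 20S core in place of the 19S, also went different ways. Psme4 encodes PA200, a large nuclear activator known from male germ cells. It measured 67.8 and 16.5 TPM in GV and 296 and 199 TPM in MII, so both MII libraries lay above both GV libraries although the GV libraries differed widely. Its log2 fold change was 3.75 ± 0.81 (adjusted p = 0.00525), and the full coding transcript Psme4-001 of 6491 bases carried between 91.8% and 96.8% of its level in the oocyte libraries. Psme3, the nuclear PA28 gamma activator, measured 243 and 242 TPM in GV and 264 and 271 TPM in MII, a log2 fold change of 1.36 ± 0.37 (adjusted p = 0.0164). Its call was lost without any 1 of the 4 oocyte libraries, at 1.36 and 1.24 without GV replicates 1 and 2 and at 1.16 and 1.34 without MII replicates 1 and 2, and on the log2(TPM + 1) scale, at 0.14. Psme2, a subunit of the interferon-inducible PA28 activator, measured 31.8 and 39.7 TPM in GV and 0.498 and 2.20 TPM in MII, and fell by 3.61 on the log2 scale. Its partner Psme1 was low at both stages, at 0.730 and 6.45 TPM in GV and 0.731 and 1.47 TPM in MII, and was not called, except as lower without GV replicate 1 (−1.83).

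Inducible and tissue-specific 20S subunits were near the lower limit of measurement in oocytes. Psmb8, Psmb9 and Psmb10 together made 0.443 and 1.91 TPM in GV and 0.057 and 0.350 TPM in MII, and Psmb9 had no count in MII replicate 1. None of these 3 was called between the stages by edgeR or DESeq2, and 0 of them had an unadjusted p under 0.05. With no filter on counts Psmb10 was called lower (−1.76), and on coding transcripts alone Psmb9 was (−6.99). The higher of the GV values came from replicate 2, in which the list of 13 cumulus and granulosa cell markers summed to 173 TPM against 34.6 in GV replicate 1, with the granulosa gene Inha at 105 and 4.66 TPM. The list is not particular to such cells, since it summed to 21.6 and 23.2 TPM in ESC and to 184 and 279 TPM in EpiC, where Krt18, an epithelial keratin, made 143 and 250 TPM and Inha at most 0.532 TPM. The part of such cells in the values of Psmb8, Psmb9, Psmb10 and Psme1 in GV replicate 2 was not tested. Psmb11, the thymic catalytic subunit, measured 0.594 and 0.733 TPM in GV and 0.00698 and 0.0614 TPM in MII, with an edgeR log2 fold change of −2.97 and an adjusted p of 0.0516. It was called lower by DESeq2 (−2.84, adjusted p = 0.00717) and in 11 other settings. Psma8, the alpha subunit of spermatocyte proteasomes, measured 0.127 and 0.159 TPM in GV and 0.0921 and 0.0847 TPM in MII.

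The assignment of reads to transcripts bears on a few of these genes. For 4 core subunits much of the level was assigned to transcripts that the annotation does not call protein-coding. Psma3 had at most 14.6% of its level on coding transcripts in any library, Psmb4 between 17.6% and 54.4%, Psmd13 between 13.8% and 59.8% and Psmd14 between 26.7% and 87.9%. Most of Psma3 was assigned to Psma3-005, annotated for nonsense-mediated decay, and Psma3-004, a retained-intron transcript. Within Psmb6 the transcripts went different ways: the retained-intron transcript Psmb6-002 measured 14.4 and 13.7 TPM in GV and 65.3 and 48.9 TPM in MII. Its coding transcript Psmb6-001 measured 273 and 420 TPM in GV and 123 and 153 TPM in MII. The tables give no error for these assignments.

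The comparison of EpiC with ESC asks what changes when cells leave the naive state. No core subunit passed the test. None of the 31 was called by edgeR, DESeq2 or limma on log2(TPM + 1), and 0 had an unadjusted p under 0.05 in any of the 3. Their log2 fold changes ran from −0.62 for Psmd8 to 0.43 for Psma7, with approximate SEs between 0.32 and 0.74. Changes above these SEs could also be missed at this number of libraries. Psmd8, at −0.62 ± 0.32, had an adjusted p of 0.382 by edgeR. Of all 43 genes, 1 was called higher and 0 lower by edgeR, against 2.63% higher and 2.83% lower of all genes tested. The 38 genes with a mean of at least 10 TPM held 0 calls, against 2.56% higher and 3.83% lower of the 8177 coding genes at that level. At an unadjusted p under 0.05 the counts were 2 higher and 1 lower, and DESeq2 called the same numbers, 1 higher and 0 lower. The median log2 fold change was −0.06 for the 43 genes and 0.03 for all genes.

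The gene that rose in EpiC was an inducible catalytic subunit. Psmb8, which replaces Psmb5, measured 0.0479 and 0.115 TPM in ESC and 8.13 and 1.83 TPM in EpiC, from 3 and 21 estimated counts in ESC and 279 and 170 in EpiC. Both EpiC libraries lay above both ESC libraries, and Psmb8 rose with a log2 fold change of 5.14 ± 1.19 (adjusted p = 0.0389). The call did not hold without ESC replicate 1 (4.76), ESC replicate 2 (5.83), EpiC replicate 1 (3.94), MII replicate 1 (5.13) or MII replicate 2 (5.13), or on the compared groups alone (5.23). Psmb10, which replaces Psmb7, measured 8.06 and 6.90 TPM in ESC and 46.7 and 14.1 TPM in EpiC, with a log2 fold change of 1.97 ± 0.82 that was not called (adjusted p = 0.244). Psmb9, which replaces Psmb6, measured 0.487 and 1.46 TPM in ESC and 4.84 and 2.32 TPM in EpiC and was not called (adjusted p = 0.6). All 3 lay higher in both EpiC libraries than in both ESC libraries.

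Even so, the inducible subunits stayed a small part of the catalytic mRNA. Psmb8, Psmb9 and Psmb10 made 0.869% and 1.41% of the summed TPM of the 6 catalytic genes in ESC and 5.50% and 3.30% in EpiC. In oocytes the same share was between 0.0294% and 0.212%. The PA28 genes Psme1 and Psme2, which interferon induces with them, were not called between EpiC and ESC: Psme2 measured 60.4 and 45.7 TPM in ESC and 161 and 63.7 TPM in EpiC. Psma8 measured 18.8 and 12.4 TPM in ESC and 7.88 and 2.41 TPM in EpiC, with a log2 fold change of −1.65 ± 0.58 that was not called (adjusted p = 0.16).

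The lists of markers of other cells went different ways between ESC and EpiC. The list of 10 fibroblast feeder markers summed to 3.68 and 4.82 TPM in ESC and 147 and 65.0 TPM in EpiC, where Tagln alone made 134 and 60.0 TPM while Lum was at or near 0. EpiC replicate 1 was the higher EpiC library for this list and for Psmb8, Psmb9 and Psmb10. The same library was also higher for all 43 genes together, at 8595 against 4481 TPM, and for formative markers, at 692 against 174 TPM. The list of 9 blood and macrophage markers summed to 20.3 and 37.8 TPM in ESC and 7.60 and 15.7 TPM in EpiC, and Ptprc, the pan-leukocyte marker, stayed under 0.1 TPM in all 8 libraries. The part of feeder or other cells in the higher Psmb8 level was not tested.

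**Figure D4:**
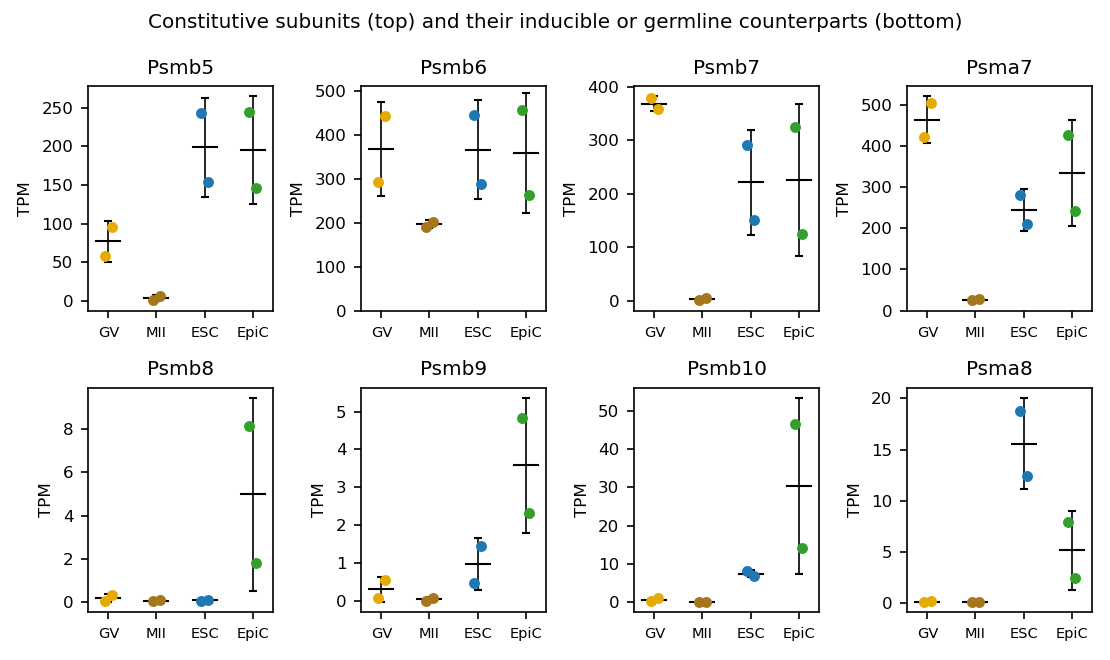
TPM of the constitutive subunits Psmb5, Psmb6, Psmb7 and Psma7 (top) and of the inducible or germline subunits Psmb8, Psmb9, Psmb10 and Psma8 (bottom) by group, with points for the 2 libraries and a bar at the mean ± SD. Psmb8 reaches 8.13 and 1.83 TPM in EpiC, and Psma8 is highest in ESC at 18.8 and 12.4 TPM, while Psmb5 and Psmb7 are lowest in MII.

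The change from GV to MII was tested against the change from ESC to EpiC for each gene, as a difference of differences. It was lower in the oocyte transition for 21 of the 43 genes and higher for 2, against 16.4% lower and 13.2% higher of all genes tested. At a mean of at least 10 TPM it was lower for 20 and higher for 2 of 38, against 27.3% and 29.4% of coding genes at that level. The median difference was −2.53 for the 43 genes and −0.69 for all genes. All 5 ATPases that fell in MII passed this test, with Psmc2 at −4.81 ± 1.10 (adjusted p = 0.0109) and Psmc1 at −4.26 ± 0.98 (adjusted p = 0.011). Psmb7 had the largest negative difference, −5.47 ± 1.01 (adjusted p = 0.0046), from 0.00 ± 0.67 in the cultured cells. In the other direction, Psme4 stood at 4.21 ± 1.06 (adjusted p = 0.0165) and Psmd3 at 2.85 ± 0.56 (adjusted p = 0.00585). The call of Psme4 was lost without MII replicate 1 (3.84, adjusted p = 0.054).

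The comparison of GV oocytes with ESC asks how oocyte mRNA stores differ from those of pluripotent cells. It shares its GV libraries with the comparison of the stages and its ESC libraries with that of the cultured cells, so its values are given side by side with those and not as separate evidence. Of the 43 genes, 8 were called higher and 6 lower in GV, against 28.3% higher and 31.3% lower of all genes tested. At a mean of at least 10 TPM the counts were 8 and 4 of 38, against 36.5% and 28.3% of coding genes at that level. The medians were 0.26 for the 43 genes and −0.51 for all genes, and on the log2(TPM + 1) scale the median of the 43 was −0.05. None of the 6 ATPases was called by edgeR, and 0 had an unadjusted p under 0.05. The sums of their TPM, 911 and 1056 in GV and 1326 and 986 in ESC, overlapped.

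All 3 assembly chaperones were higher in GV than in ESC. Psmd10 measured 81.7 and 80.3 TPM in GV and 17.0 and 12.7 TPM in ESC, for a log2 fold change of 2.77 ± 0.39 (adjusted p = 0.000356). Psmd9 was at 23.4 and 27.5 TPM in ESC and its log2 fold change was 2.41 ± 0.38 (adjusted p = 0.000668). Psmd5 was at 51.6 and 49.8 TPM in ESC and its log2 fold change was 1.55 ± 0.35 (adjusted p = 0.00449). The GV libraries of each of the 3 lay above both ESC libraries, and these 3 calls held in all 18 alternative settings. The other 5 genes called higher, Psma2 (1.54), Psmd4 (1.37), Psme3 (1.34), Psmb2 (1.33) and Psma7 (1.29), all lost their calls without ESC replicate 2, at 1.20, 1.25, 1.20, 0.98 and 1.12. Psma2, Psma7 and Psmb2 also lost them on the log2(TPM + 1) scale, at 1.27, 0.93 and 1.04, and Psmb2 without GV replicate 2, at 1.25.

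The genes called lower in GV were of several roles. Psma8 was at 18.8 and 12.4 TPM in ESC and at most 0.159 TPM in GV, a log2 fold change of −6.41 ± 0.73 (adjusted p = 0.000111). Psme1 was at 62.0 and 44.7 TPM in ESC and 0.730 and 6.45 TPM in GV, a log2 fold change of −3.98 ± 0.88 (adjusted p = 0.00412). Its partner Psme2 was not called, at 31.8 and 39.7 TPM in GV and 60.4 and 45.7 TPM in ESC. The lid subunit Psmd7, which pairs with Psmd14, was at 37.1 and 44.7 TPM in GV and 247 and 174 TPM in ESC, and lower by a log2 fold change of −2.03 ± 0.34 (adjusted p = 0.00099). Psmd13 (−3.08) and Psmb10 (−3.09) lost their calls without GV replicate 1, at −2.61 and −2.18. Psmd11 (−1.16) lost its call without ESC replicate 1 (−1.001), ESC replicate 2 (−1.30), GV replicate 1 (−0.48), MII replicate 1 (−0.87) or MII replicate 2 (−0.88), with the 2 groups fitted alone (−0.95), with the length offset (−0.95) and with no filter on counts (−0.88). Of the 29 genes not called between GV and ESC, 5 were called in some alternative setting. Psma3, at −0.26 with all transcripts summed, was called lower on coding transcripts alone (−3.93). Psmb3 and Psmd14 were called lower in other settings, and Psmb7 and Psmd8 higher.

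In MII oocytes against EpiC, 28 of the 43 genes were called lower and 7 higher, against 39.6% lower and 28.5% higher of all genes tested. At a mean of at least 10 TPM the counts were 23 and 7 of 38, against 37.6% and 44.1% of coding genes at that level. The calls of 23 of the 28 lower and 3 of the 7 higher genes held in every setting. This comparison shares the MII libraries with that of the stages and the EpiC libraries with that of the cultured cells. The lowest were the inducible Psmb10 at −6.60 ± 1.04, the PA28 gene Psme1 at −5.57 ± 0.96 and Psmb9 at −5.41 ± 1.42. The calls of Psmb9 and Psmb8 were lost without MII replicate 1, at −4.56 and −3.92. Psme4, Psma2 and Psmd9 were the highest, at 3.57 ± 0.80, 2.88 ± 0.46 and 2.53 ± 0.38, ahead of Psme3 and Psmd3 at 2.49 ± 0.38 and 2.48 ± 0.41. Psma2 measured 646 and 735 TPM in MII and 390 and 152 TPM in EpiC, and the groups did not overlap. The chaperone Psmd5 (1.12) and the alpha subunit Psma1 (1.08) were called higher on TMM-scaled counts and turned sign on the log2(TPM + 1) scale, at −0.14 and −0.29. Both also lost their calls without EpiC replicate 2 (0.83 and 0.71), and Psma1 without MII replicate 1 (1.28) or MII replicate 2 (1.27). On the log2(TPM + 1) scale the calls of Psme4 (2.02) and Psmd9 (0.88) were lost as well.

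Genes that work with the proteasome but carry other symbols were followed as 7 lists. Of 50 genes found, 47 were tested, and between GV and MII 17 fell and 11 rose, against 22.2% lower and 17.4% higher of all genes tested, and 34.6% and 35.5% of coding genes with a mean of at least 10 TPM. The list of transcription and its activation differed by scale. By edgeR and by DESeq2 6 of its 9 tested genes were called higher and 0 lower, with 1 lower at an unadjusted p under 0.05 by edgeR. By limma on log2(TPM + 1) 3 were called higher (Ddi2, Mafg and Nfe2l3) and 1 lower (Bach1). Nfe2l1 encodes the transcription factor that restores proteasome genes when degradation is blocked, and Ddi2 the protease and Ngly1 the glycanase that activate it. Ddi2 measured 116 and 76.0 TPM in GV and 317 and 308 TPM in MII, a log2 fold change of 3.04 ± 0.38 (adjusted p = 0.000584). Mafg, which pairs with these factors on DNA, rose by 2.44 ± 0.38 on the log2 scale. Ngly1, named here outside the rule for its role, was called higher at 1.74 ± 0.38 and lost its call on the log2(TPM + 1) scale (0.63). Among those that rose was also Nfe2l3, a relative of Nfe2l1, at 3.05 ± 0.57, with 1.28 and 0.761 TPM in GV and 4.06 and 3.39 TPM in MII. Nfe2l1 itself measured 105 and 91.5 TPM in GV and 85.5 and 141 TPM in MII, and its log2 fold change was 1.52 ± 0.38. That call was lost without GV replicate 2 (1.40), without MII replicate 2 (0.95) and on the log2(TPM + 1) scale (0.16), where the call of its relative Nfe2l2, at 1.52 ± 0.34, was lost too (0.34).

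In the list of ubiquitin genes and activating enzymes 2 of the 4 tested genes fell and 0 rose by edgeR, with 1 higher at an unadjusted p under 0.05 and 1 called higher by DESeq2. The genes that fell encode ubiquitin, with log2 fold changes of −4.27 ± 0.69 for Rps27a and −2.51 ± 0.43 for Ubb. Ubb remained abundant in MII, at 264 and 441 TPM against 3387 and 5607 TPM in GV. Of the 10 partners of the 19S cap, 4 fell and 3 rose. Beside both of these lists, 22.2% of all genes tested were called lower and 17.4% higher. Among coding genes with a mean of at least 10 TPM the shares were 34.6% and 35.5%. The ubiquitin receptor Adrm1 fell by 3.33, the deubiquitinase Usp14 by 3.21 and the inhibitor Psmf1 by 3.08, the last from 212 and 252 TPM to 7.73 and 10.3 TPM. Uchl5, the deubiquitinase that Adrm1 recruits, was not called, with 148 and 106 TPM in GV and 112 and 107 TPM in MII. In the same list Ube3c, a ligase that extends chains on the proteasome, rose by a log2 fold change of 4.13 ± 0.47. The zinc finger genes Zfand5 and Zfand2a, whose proteins bind the proteasome, rose by 2.96 ± 0.35 and 2.70 ± 0.42.

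Among shuttles, which carry ubiquitinated proteins to the cap, 6 of 9 tested genes fell and 2 rose. Of all genes, 22.2% were lower and 17.4% higher, and of coding genes with a mean of at least 10 TPM 34.6% and 35.5%. The segregase Vcp fell by 3.70 and its cofactors Nsfl1c and Nploc4 by 4.08 and 3.38, while Ubqln1 rose from 205 and 150 TPM to 735 and 720 TPM, a log2 fold change of 3.20 ± 0.40 (adjusted p = 0.000586). Ubqln2 rose by 2.48 ± 0.46, a call that was lost on the log2(TPM + 1) scale (1.32). Of the 5 assembly factors of the 20S and 19S, Psmg4 and Psmg2 fell by 2.17 and 1.58, and Pomp, which matures the 20S core, was not called at −0.74 ± 0.37. The call of Psmg2 was lost without GV replicate 2 (−1.35), MII replicate 1 (−1.29), ESC replicate 1 (−1.60) or ESC replicate 2 (−1.59), with relative log expression scaling (−1.39) and on the compared groups alone (−1.55). Of the 2 genes of nuclear import and localisation, the importin Ipo9, which carries proteasomes into the nucleus, fell by 2.97. The other had a log2 fold change of 0.84 and was not called by edgeR. DESeq2 called 1 gene of this list higher and 1 lower. In the antigen processing and interferon list 2 of 8 fell and 0 rose, against 22.2% lower and 17.4% higher of all genes. Irf1 fell by 5.13 and Irf8 by 3.92.

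**Figure D5:**
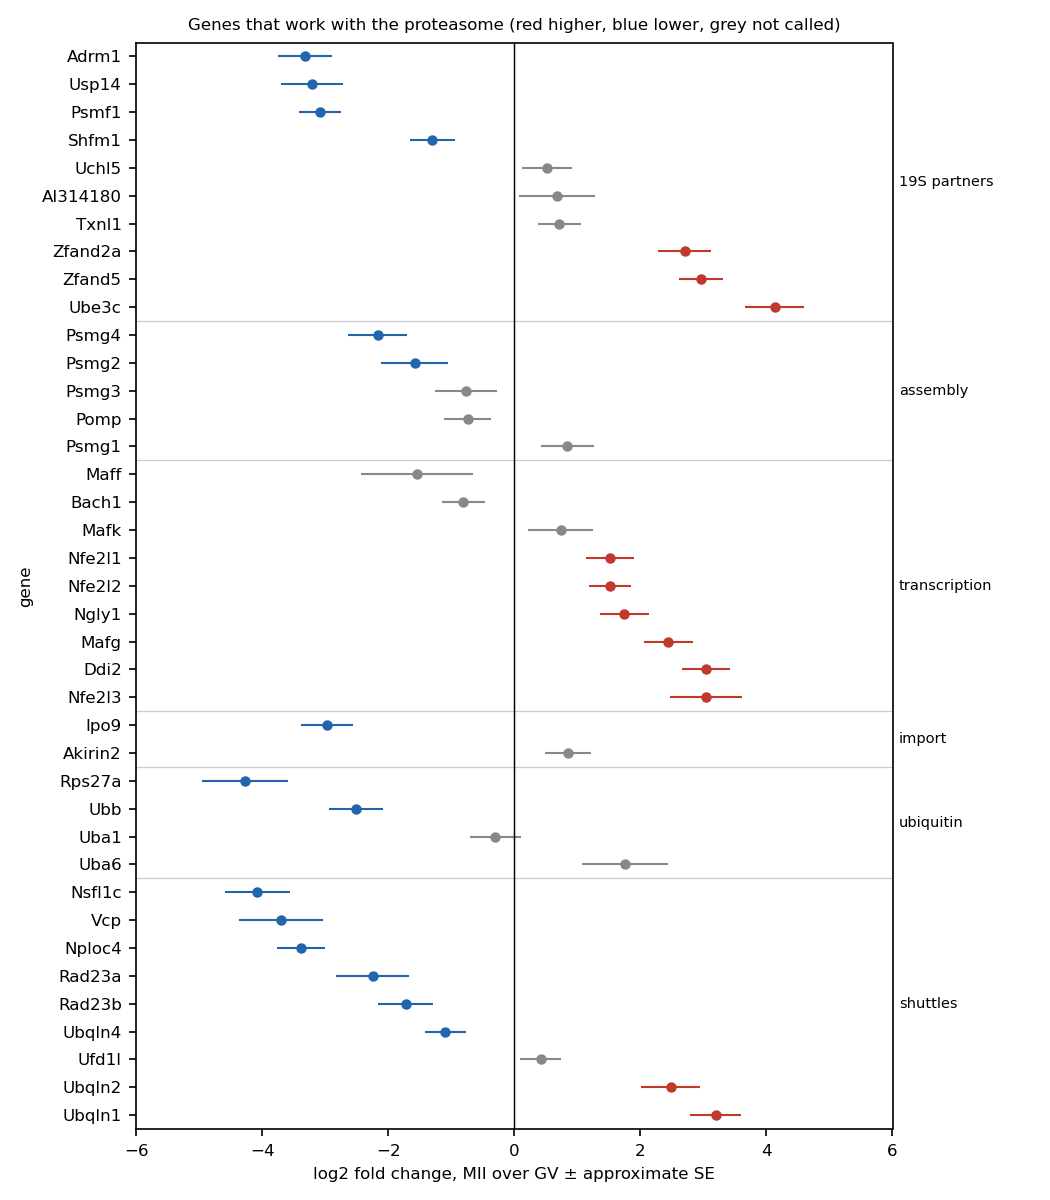
Log2 fold change ± approximate SE from GV to MII of the genes that work with the proteasome, grouped by list, with called higher in red, called lower in blue and not called in grey. In the transcription list 6 genes are red, up to 3.05 for Nfe2l3, and the ubiquitin genes Rps27a and Ubb are blue, at −4.27 and −2.51.

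None of the same 47 genes was called between EpiC and ESC by edgeR, with 3 higher and 0 lower at an unadjusted p under 0.05. DESeq2 called 1 higher and 0 lower. That gene was the interferon regulatory factor Irf8, at 0.0809 and 0.270 TPM in ESC and 0.947 and 0.809 TPM in EpiC, with a log2 fold change of 2.62 ± 0.77 by edgeR (adjusted p = 0.0923). Tap1, a peptide transporter gene beside Psmb9 on chromosome 17, measured 1.10 and 10.3 TPM in ESC and 10.04 and 32.4 TPM in EpiC, and was not called.

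Promoter sequence was examined because Nfe2l1 acts through the antioxidant response element, searched here as TGANNNNGC on both strands, and because the CCAAT box is common in promoters of housekeeping genes. In the RefSeq table of GRCm38.p6, which holds 250 bases before to 50 after each gene's start, 36 of the 43 genes were matched, with 39 promoters. TGANNNNGC stood in 23 of these 39 (59.0%) and in 41.3% of 32851 promoters of all genes. CCAAT stood in 14 of 39 (35.9%) and in 37.4% of all. Of the 4 genes called higher in MII, Psme4, Psme3 and Psma2 were matched and Psmd3 was not. Their promoters and that of the catalytic Psmb5, which fell, are given below, with matches in capitals. The calls of Psma2 and Psme3 were lost on the log2(TPM + 1) scale. A match describes the letters only. It does not show that the promoter holds a working element, since 41.3% of all promoters hold a match of TGANNNNGC.

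Psme4, chr11:30771525-30771824, plus strand: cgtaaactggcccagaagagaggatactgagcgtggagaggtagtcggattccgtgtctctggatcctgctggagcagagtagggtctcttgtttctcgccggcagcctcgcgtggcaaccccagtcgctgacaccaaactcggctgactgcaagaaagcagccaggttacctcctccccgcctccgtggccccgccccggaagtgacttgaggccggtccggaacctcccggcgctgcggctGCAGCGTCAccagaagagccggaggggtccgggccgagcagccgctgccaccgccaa

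Psme3, chr11:101315963-101316262, plus strand: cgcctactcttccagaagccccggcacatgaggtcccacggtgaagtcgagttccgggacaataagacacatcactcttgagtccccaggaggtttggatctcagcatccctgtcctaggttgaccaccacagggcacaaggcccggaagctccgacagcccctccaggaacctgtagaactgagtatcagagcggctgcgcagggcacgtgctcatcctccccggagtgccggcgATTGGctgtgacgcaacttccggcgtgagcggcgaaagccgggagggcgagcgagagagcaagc

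Psma2, chr13:14612992-14613291, plus strand: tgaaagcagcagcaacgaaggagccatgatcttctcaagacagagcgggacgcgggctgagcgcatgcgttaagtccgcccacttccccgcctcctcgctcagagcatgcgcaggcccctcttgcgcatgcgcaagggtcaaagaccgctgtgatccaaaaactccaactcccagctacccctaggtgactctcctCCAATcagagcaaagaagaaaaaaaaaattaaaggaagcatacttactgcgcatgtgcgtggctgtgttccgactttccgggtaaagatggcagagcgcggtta

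Psmb5, chr14:54617946-54618245, minus strand: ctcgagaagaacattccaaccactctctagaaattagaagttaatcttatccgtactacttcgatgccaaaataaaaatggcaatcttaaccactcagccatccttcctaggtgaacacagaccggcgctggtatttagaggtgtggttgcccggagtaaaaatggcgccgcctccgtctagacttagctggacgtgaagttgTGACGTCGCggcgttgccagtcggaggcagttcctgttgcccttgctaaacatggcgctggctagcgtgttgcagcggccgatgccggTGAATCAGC

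Psme4 holds 1 match of TGANNNNGC and no CCAAT, and Psme3 and Psma2 hold 1 CCAAT each and no TGANNNNGC. Psmb5, which fell in MII, holds 2 matches of TGANNNNGC. It does not stand for all genes that fell, since Psma7 holds 1 match and Psmc5 and Psmd6 hold 0. Whether matches go with the direction of change was not tested.

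The last 150 bases of the transcript were examined because some stored oocyte mRNAs carry a cytoplasmic polyadenylation element there, searched as TTTTAT or TTTTAAT on the transcribed strand. This search was chosen after the values had been seen. The sequence came from GENCODE M21 for the most abundant coding transcript of each gene, matched by transcript ID for 43 of 43 genes, 32 of them with the length given in the tables. The element stood in 4 of the 43 genes (9.30%) and in 21.8% of 17420 coding genes tested. Among all of these genes it stood in 40.1% of those called higher in MII, 11.5% of those called lower and 19.1% of those not called. Among the 43 it stood in 0 of the 4 genes called higher, 2 of the 24 called lower and 2 of the 15 not called. The 4 sites are shown with 8 bases before the element, the element in capitals.

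Psma1: accaatgtTTTTATatgaagaaaataag

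Psma5: gtgtgtttTTTTATgaagtctgtacata

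Psmb1: ttgcttttTTTTAATaaacttctgttct

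Psmb3: gtttttctTTTTAATaaaattgcctttc

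The elements end 65, 47, 19 and 17 bases before the annotated 3′ end. Those of Psmb1 and Psmb3 overlap the polyadenylation hexamer AATAAA. Psma1 and Psmb3 are 2 of the 7 core subunits that were not called between GV and MII, while Psma5 and Psmb1 fell. Whether the element goes with the change of these genes was not tested. The hexamer AATAAA or ATTAAA stood in 37 of the 43 genes (86.0%) and in 76.7% of all.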

How the data were processed

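Stranded paired-end libraries were made from total RNA extracted with TRIzol, per the labels' protocols. The sources used here give neither the annotation release nor whether poly(A) RNA was selected. The deposited tables hold estimated counts and TPM for 117667 transcripts per library, which the authors made with kallisto 0.43; the build named in the submitters' processing notes is mm10. TPM, in the deposited tables, is abundance per transcript length, scaled by the authors to a fixed total per library.

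Estimated counts were summed per gene over all transcripts, coding or not, and the sums rounded. In R 4.3.3, edgeR 4.0.16 kept 25045 genes by filterByExpr and scaled libraries by TMM, with factors of 0.405 and 0.422 for MII. A robust quasi-likelihood model with 1 mean for each of the 4 groups took in the 8 libraries and left 4 residual degrees of freedom. Adjusted p-values are Benjamini-Hochberg values of this fit over all genes, with 0.05 as the threshold. SEs are approximate, from dividing the size of the log2 fold change by the root of its F statistic. The same code was tested on simulated counts. Alternatives used DESeq2 1.42.0 and limma 3.58.1.

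The members, their roles, the lists of associated genes and the markers were chosen with earlier results of these data known. Every member may be named. Values per library are given for the largest called changes, for inducible and tissue-specific subunits with their counterparts, for activators and for genes called against the majority. Of each associated list up to 3 called genes per direction were named, with Nfe2l1, Nfe2l2, Pomp, Psmf1, Usp14, Uchl5 and Adrm1. Some genes of these lists are not reported here and stay out of their counts. Paaf1 was not found under that symbol, and protein sequences were not analysed here. Promoters were not matched for Psma8, Psmb1, Psmb2, Psmb7, Psmc3, Psmd3 and Psmd7.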

Additional observations from a re-analysis of the deposited data

Results flagged for a closer look

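For 23 of the 43 genes, the change from GV to MII differed from the change from ESC to EpiC by a test of the difference itself, the interaction in the edgeR quasi-likelihood fit. The difference, on the log2 scale, was negative for 21 genes. Among the 20S subunits it was −5.47 for Psmb7, −4.14 for Psmb4, −3.44 for Psma7, −3.10 for Psmb5, −3.07 for Psmb1, −2.77 for Psma4, −2.75 for Psma6, −2.68 for Psma3 and −2.0 for Psma5. Among the ATPases it was −4.81 for Psmc2, −4.26 for Psmc1, −3.34 for Psmc3, −3.03 for Psmc5 and −2.99 for Psmc4. The non-ATPase subunits Psmd6, Psmd1, Psmd14 and Psmd12 stood at −3.42, −3.04, −2.82 and −2.66, and the chaperone Psmd10 at −2.25. Psmb8 stood at −5.34 and Psme2 at −4.75. For these 2 genes the oocyte and cultured-cell changes were −0.20 and 5.14 for Psmb8 and −3.61 and 1.14 for Psme2. The difference was positive for Psme4, at 4.21, and Psmd3, at 2.85.

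For 7 of these genes the call was lost when 1 library was left out. Psmd10 and Psma3 lost it without ESC replicate 2, at −2.09 and −2.34, and Psme4 without MII replicate 1, at 3.84. Psmd1 lost it without ESC replicate 2 (−2.57), EpiC replicate 1 (−2.08), GV replicate 1 (−2.88) or MII replicate 1 (−2.77). Psmb5 lost it without ESC replicate 1 (−3.41), ESC replicate 2 (−2.84), EpiC replicate 1 (−2.88) or GV replicate 2 (−2.62). Psma5 lost it without ESC replicate 1 (−2.44), ESC replicate 2 (−1.65), EpiC replicate 1 (−1.40), GV replicate 1 (−2.21), GV replicate 2 (−1.89) or MII replicate 1 (−1.72), and also with DESeq2 (−1.81) and with relative log expression scaling (−1.81). Psmb8 lost it without ESC replicate 1 (−4.97), ESC replicate 2 (−6.03), EpiC replicate 1 (−4.15), GV replicate 2 (−3.02), MII replicate 1 (−5.07) or MII replicate 2 (−6.15).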

How the results depend on the processing

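Each comparison was recomputed under 18 settings, and the difference of the 2 transitions under 17. Of 1794 values of members called in their comparison, 1679 kept their direction and call, 109 kept their direction and lost the call, and 6 turned sign. Of 2026 values of members not called in their comparison, 99 were called, from 18 genes. The 6 were Psmd5 (−0.14 in each) and Psma1 (−0.29 in each) for MII against EpiC with limma on log2(TPM + 1), on log2(TPM + 0.1) and with a mean of at least 1 TPM. The number of genes called higher in MII than in GV moved from 4 to 2 in these 3 settings, that for GV against ESC from 8 to 5 in each, and that for MII against EpiC from 7 to 4 on log2(TPM + 0.1) and 3 on log2(TPM + 1). For EpiC against ESC it moved from 1 to 0 on the compared groups alone and 2 without a count filter. With 1 library left out, the counts higher were 2 to 4 for MII against GV, 0 to 1 for EpiC against ESC, 3 to 10 for GV against ESC, 5 to 7 for MII against EpiC and 1 to 4 for the difference. The counts lower were 20 to 25, 0, 3 to 6, 23 to 28 and 15 to 23.

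Replicate numbers are shared between groups without a stated pairing. The replicate differences correlated across genes at 0.427 between GV and MII, 0.785 between ESC and EpiC and 0.075 to 0.104 otherwise, over only 2 pairs. With the replicate number as a block, 5 genes were called higher and 25 lower for MII against GV, 1 and 0 for EpiC against ESC, 9 and 6 for GV against ESC, 7 and 28 for MII against EpiC, and 2 and 22 for the difference, so every count stayed within 1.5 times. With 2 libraries a group, counts near 0, as for Psmb8, Psmb9, Psmb11 and Psma8 in oocytes, limit what could be detected, and intervals of counting error do not cover the error of assigning reads to transcripts.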

Other observations

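Processed copies of some subunit genes are listed beside them, and reads could be split between copy and gene. Psmb7-ps2 measured 1.21 and 1.02 TPM in GV, 0 in both MII libraries and at most 0.181 TPM in the cultured cells, against 378 and 359 TPM of Psmb7 in GV. Psme2b reached at most 0.124 TPM, Psmb5-ps 0.152 TPM, Psmb6-ps 0.0696 TPM and Psmb6-ps2 0.0726 TPM in any library. All of these are small beside the levels of the genes they resemble, except in MII, where Psme2 itself measured 0.498 and 2.20 TPM and Psme2b 0 and 0.103 TPM.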
